A study of Homo sapiens with 12 samples.

Results

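The nuclear receptors are transcription factors that carry a DNA-binding domain with zinc fingers and, in most members, a pocket that binds a hormone, a vitamin, a lipid or a drug. The 30 nuclear receptor genes described here were chosen by gene name from the 58735 genes of the deposited expression table, and each name matched 1 row. They cover the retinoid, thyroid hormone and vitamin D receptors, the lipid and sterol sensors, the receptors of the circadian clock, the orphan receptors of the NR2 class, steroid and estrogen-related receptors, and NR5A2, NR6A1 and NR0B1. A further 18 human nuclear receptor genes, among them the NR4A genes, served for comparison.

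RNA was sequenced from 2 human cell lines labelled KGN and COV434, both labelled as granulosa cell tumor (GCT) lines of wild-type genotype, with 3 untreated and 3 77-39 treated libraries for each. 77-39 is a small molecule described in the study as a selective inhibitor of SIRT3, the mitochondrial deacetylase, and the treated libraries carry a time of 72 h and a dose of 10 um/ml, a unit that could mean µM or µg/mL. According to the study's methods, KGN derives from an adult-type GCT and COV434 from a juvenile-type GCT. Each line is a single established line in culture, and no label says that replicates came from separate cultures, so p-values measure only the spread between these libraries. Values are FPKM, a count of fragments scaled to the length of the gene and to the size of the library. The libraries held between 15547851 and 18280415 reads on genes, so the limit set by 3 reads was 0.152 to 0.200 FPKM for a gene of 1000 bases, for counting error only. SIRT3 transcripts did not pass the test in either line, at 4.22, 4.35 and 4.30 FPKM untreated against 3.63, 3.94 and 4.55 FPKM treated in the libraries labelled KGN.

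The labels were set beside marker genes. FOXL2, the transcription factor that defines granulosa cells, had 0 to 0.0195 FPKM in the 6 libraries labelled KGN and 11.5 to 14.0 FPKM in the 6 labelled COV434. SMARCA2, a chromatin remodelling ATPase, was at most 0.0087 FPKM in the former and at least 4.51 FPKM in the latter, while SMARCA4, its paralog, was at 2.25 to 2.60 and 6.51 to 12.6 FPKM. Of 10 granulosa cell markers, 1 and 3 reached a mean of 1 FPKM, and their summed level was 5.23 to 6.15 and 21.4 to 26.3 FPKM. FSHR and LHCGR were at 0 in every library, and NR5A1, the steroidogenic factor of granulosa cells, was at or near 0. The 4 epithelial markers summed to at most 0.102 FPKM in the libraries labelled KGN and to 298 to 476 FPKM, nearly all KRT8 and KRT18, in those labelled COV434. The 5 stromal markers summed to 38.1 to 41.8 and 79.0 to 202 FPKM, and the 5 immune and endothelial markers to at most 0.406 and 0.268 FPKM. FOXL2 is the gene whose mutation marks adult-type GCT, the origin given for KGN, and it was near 0 under that label. Whether the names of the lines were exchanged was not tested. The lines are named by their labels throughout, and every value given for a line, and every direction between the lines, rests on those labels.

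As background, most of these receptors bind short DNA elements built around the hexamer AGGTCA, as dimers whose spacing and partner differ. The retinoid X receptors (RXRs) pair with the retinoic acid receptors (RARs), the thyroid hormone receptors, the vitamin D receptor, the PPARs and the liver X receptors (LXRs), while steroid receptors bind as homodimers and several orphan receptors bind a single hexamer. In the ovary, granulosa cells are known for NR5A1, NR5A2, estrogen receptor beta and, around ovulation, the progesterone receptor, and NR2F2 is known from ovarian stroma and theca.

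The promoters of the members were searched for that hexamer. RefSeq promoters on GRCh38.p14, each from 250 bases before to 50 bases after an annotated start, were found for 28 of the 30 genes, in 66 windows. NR2F6 and VDR had no entry. AGGTCA, read on either strand, was present in 8 of the 66 windows (12.1%) and in 4857 of all 35116 windows of the same length (13.8%). The 8 windows belonged to 6 genes, namely RARA, RARB, PPARG, NR1H3, NR5A2 and NR0B1. Direct repeats of the exact hexamer with a spacer of 1, 4 or 5 bases, which overlap the single hexamer, were in 0 windows of the members and in 0.0228%, 0.0199% and 0.0057% of all windows. The windows below are those of the 3 genes whose response to 77-39 differed between the lines and of NR5A2. NR5A2 had the largest difference between the untreated lines on the log2(FPKM + 1) scale, 5.57 against 4.43 for RORB. As a ratio of FPKM, RORB, with 0 reads in a line, has only a lower bound. For genes with several starts the window that holds the hexamer was chosen, and the hexamer is in capitals. It begins 140 bases before the start in NR1H3 (chr11:47248050-47248349, plus strand, 1 of 4 windows), 230 bases before it in RARA (chr17:40308930-40309229, plus strand, 1 of 3 windows) and 84 bases before it in NR5A2 (chr1:200027460-200027759, plus strand, 1 of 2 windows). The only RARG window (chr12:53232160-53232459, minus strand) holds none. These matches are descriptions of letters, with no binding measured here.
RARG: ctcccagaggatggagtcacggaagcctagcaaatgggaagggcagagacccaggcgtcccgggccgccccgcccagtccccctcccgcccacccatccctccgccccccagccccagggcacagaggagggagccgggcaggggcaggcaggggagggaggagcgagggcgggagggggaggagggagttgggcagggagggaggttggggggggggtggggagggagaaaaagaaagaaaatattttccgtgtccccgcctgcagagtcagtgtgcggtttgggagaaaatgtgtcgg
RARA: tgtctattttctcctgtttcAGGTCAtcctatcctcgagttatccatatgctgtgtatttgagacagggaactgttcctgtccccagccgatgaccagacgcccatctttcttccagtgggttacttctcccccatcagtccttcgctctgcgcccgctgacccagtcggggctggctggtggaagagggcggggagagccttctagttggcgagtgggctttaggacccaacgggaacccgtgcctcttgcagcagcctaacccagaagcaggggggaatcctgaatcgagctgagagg
NR1H3: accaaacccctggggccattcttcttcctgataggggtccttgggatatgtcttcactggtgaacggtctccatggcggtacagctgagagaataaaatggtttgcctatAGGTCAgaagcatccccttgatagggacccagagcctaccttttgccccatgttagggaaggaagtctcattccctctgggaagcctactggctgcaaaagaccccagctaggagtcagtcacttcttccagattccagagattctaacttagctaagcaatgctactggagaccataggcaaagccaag
NR5A2: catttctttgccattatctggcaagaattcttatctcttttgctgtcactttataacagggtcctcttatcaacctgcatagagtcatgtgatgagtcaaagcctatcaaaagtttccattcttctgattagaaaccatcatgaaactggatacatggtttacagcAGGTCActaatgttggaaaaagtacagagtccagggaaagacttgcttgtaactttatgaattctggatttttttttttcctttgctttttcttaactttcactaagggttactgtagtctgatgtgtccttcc

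The 2 untreated lines were first compared, to describe which receptors each expressed. In the untreated libraries labelled KGN, 20 of the 30 genes had a mean of at least 1 FPKM and 8 of at least 10 FPKM, against 21 and 10 in those labelled COV434. NR2F1 was the highest under the KGN label with 172 FPKM, 40.3% of the summed FPKM of the 30 genes, and NR2F6 under the COV434 label with 114 FPKM or 35.9%. In the former, NR2F2 and NR5A2 came next at 48.5 and 47.1 FPKM and overlapped, followed without overlap by NR2F6 at 36.6 FPKM, RORB, and NR1H2 at 17.0 FPKM. In the latter, ESRRA at 27.5 FPKM was clear of NR1H2 and RXRB at 22.3 and 21.5 FPKM, which overlapped. RARG and NR3C1 overlapped below them, and the 5 genes NR2F2, THRA, PPARD, NR2F1 and NR1D2, between 10.9 and 9.71 FPKM, each overlapped the next.

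**Figure D1:**
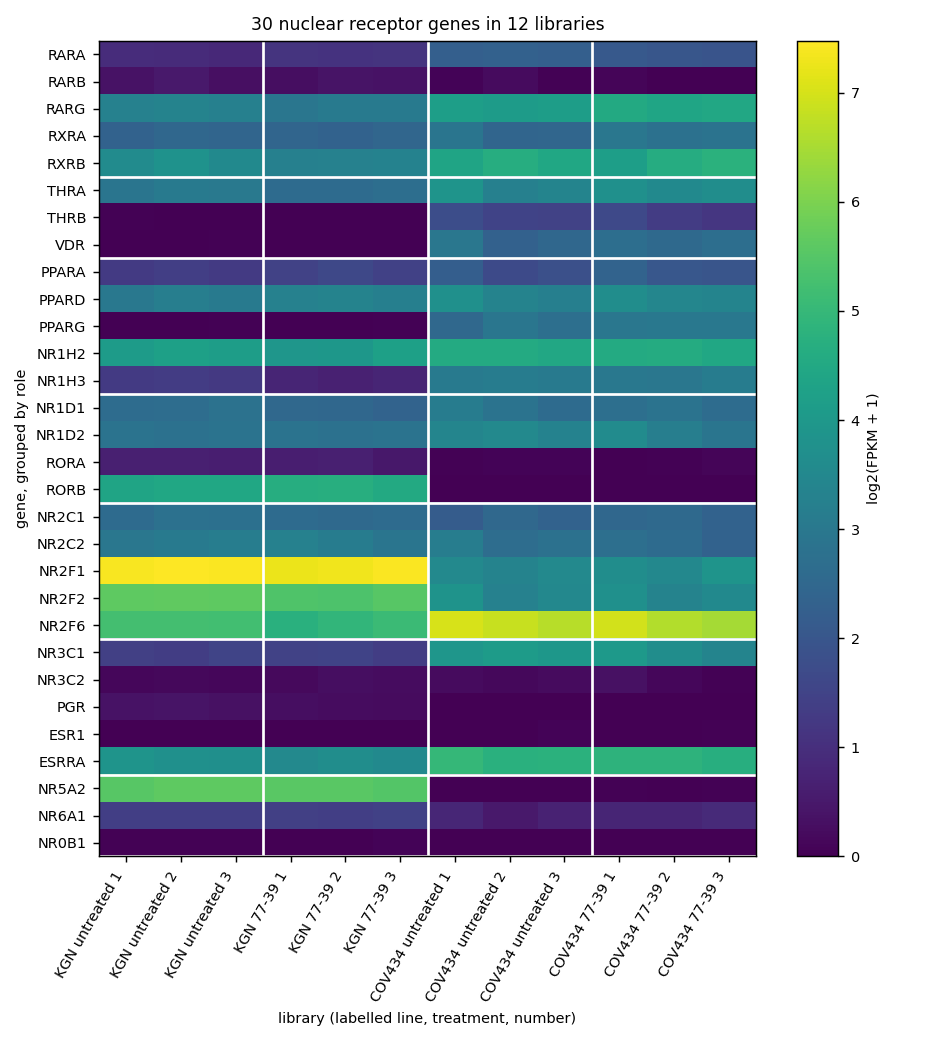
Colour gives log2(FPKM + 1) of the 30 nuclear receptor genes (rows, grouped by role with white lines) in the 12 libraries (columns, grouped by labelled line and treatment). NR2F1, NR2F2, RORB and NR5A2 are bright in the 6 libraries labelled KGN, and PPARG, VDR, NR3C1 and NR2F6 are brighter in the 6 labelled COV434.

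Of the 24 members tested (mean of at least 1 FPKM over these 6 libraries), 20 passed an adjusted p-value of 0.05 in limma on log2(FPKM + 1), with 6 higher and 14 lower in the libraries labelled KGN. Over all 13098 genes tested, 69.0% passed, 32.6% higher and 36.4% lower. The median difference of the members was -0.54 on the log2 scale against -0.02 for all genes. RARA, THRB, VDR, PPARG, RORB, NR5A2 and NR6A1 had a mean under 1 FPKM in 1 of the lines and passed the filter through the other, so their differences follow in part from the filter.

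The orphan receptors held the widest contrasts. NR5A2 (LRH-1, a regulator of steroid and bile acid synthesis genes, chr1:200027602-200177424, plus strand, GRCh38) was at 45.2, 48.1 and 47.9 FPKM in the untreated libraries labelled KGN and at 0.0080, 0.0078 and 0.0158 FPKM in those labelled COV434. That is 19673 reads against 4, a difference of 5.57 ± 0.07 (SE) on the log2(FPKM + 1) scale with an adjusted p of 2.31e-08. RORB, a receptor of the ROR class known from retina and brain (chr9:74497365-74693177, plus strand), was at 19.8, 20.7 and 21.1 FPKM against 0 reads in all 3 libraries labelled COV434. Against a limit of 3 reads over the group, RORB was at least 3303-fold higher. NR5A2 and RORB thus did not overlap between the lines, but both passed the filter through the libraries labelled KGN. The share of all genes without overlap was not counted.

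NR2F1 and NR2F2 (COUP-TFI and COUP-TFII, regulators of neural and mesenchymal development) were both higher in the libraries labelled KGN. NR2F1 was at 170, 177 and 170 FPKM against 10.4, 9.23 and 10.4 FPKM, a ratio of 17.2. NR2F2 was at 47.9, 49.6 and 47.8 FPKM against 13.4, 8.84 and 10.3 FPKM, a ratio of 4.46. NR2F6 (EAR2), the more divergent member of the same class, ran the other way, with 36.1 to 36.9 FPKM against 102 to 128 FPKM and a difference of -1.61 ± 0.11 on the log2 scale. The testicular receptors NR2C1 and NR2C2 differed little, by 0.36 ± 0.11 (adjusted p = 0.0228) and 0.19 ± 0.14 (adjusted p = 0.274).

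Among the lipid and vitamin sensors, PPARG, the regulator of fat storage (chr3:12287368-12434356, plus strand), was at 0.0119, 0 and 0.0336 FPKM under the KGN label and at 4.76, 6.65 and 5.65 FPKM under the COV434 label. VDR, the vitamin D receptor (chr12:47841537-47943048, minus strand), was at 0.0190, 0.0103 and 0.0269 FPKM against 6.87, 4.03 and 4.62 FPKM. THRB, the thyroid hormone receptor beta, had 8 reads against 1108. The lines did not overlap for any of these 3 genes, which passed the filter through the libraries labelled COV434. Their relatives THRA, PPARA and PPARD were expressed under both labels. THRA was 7.09 ± 0.49 and 10.5 ± 2.7 FPKM (SD, n = 3; difference -0.49 ± 0.17, adjusted p = 0.0380), PPARA 1.46 ± 0.11 and 2.82 ± 0.82 FPKM, and PPARD, with an adjusted p of 0.0725, 7.54 ± 0.60 and 10.1 ± 2.2 FPKM.

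NR1H3 (LXR alpha, a sensor of oxysterols, chr11:47248300-47269032, plus strand) was at 1.42, 1.5 and 1.34 FPKM under the KGN label and at 7.42, 7.79 and 7.24 FPKM under the COV434 label, a difference of -1.81 ± 0.07. Its paralog NR1H2 (LXR beta) was nearer, at 17.0 ± 0.94 and 22.3 ± 0.94 FPKM. NR3C1, the glucocorticoid receptor (chr5:143277931-143435512, minus strand), was at 1.69, 1.56 and 1.89 FPKM against 14.3, 16.2 and 14.4 FPKM, a difference of -2.56 ± 0.09 with an adjusted p of 7.63e-07. NR3C1 and NR1H3 were thus several times lower in every library labelled KGN. ESRRA, the estrogen-related receptor of mitochondrial genes, was 12.8 ± 0.75 against 27.5 ± 2.6 FPKM.

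All 3 retinoid receptors that passed were lower in the libraries labelled KGN. RARA was 0.873 ± 0.043 against 3.89 ± 0.11 FPKM, RARG 8.88 ± 0.32 against 16.8 ± 0.57 FPKM, and RXRB 11.7 ± 1.3 against 21.5 ± 2.3 FPKM. RXRA, with 4.37 ± 0.24 and 5.14 ± 1.1 FPKM, did not pass (adjusted p = 0.276). Of the clock receptors, NR1D2 was lower (-0.60 ± 0.09) and NR1D1, the REV-ERB alpha repressor of the clock, did not pass (-0.16 ± 0.15, adjusted p = 0.372). NR6A1, the germ cell nuclear factor, was higher by 0.71 ± 0.10.

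**Figure D2:**
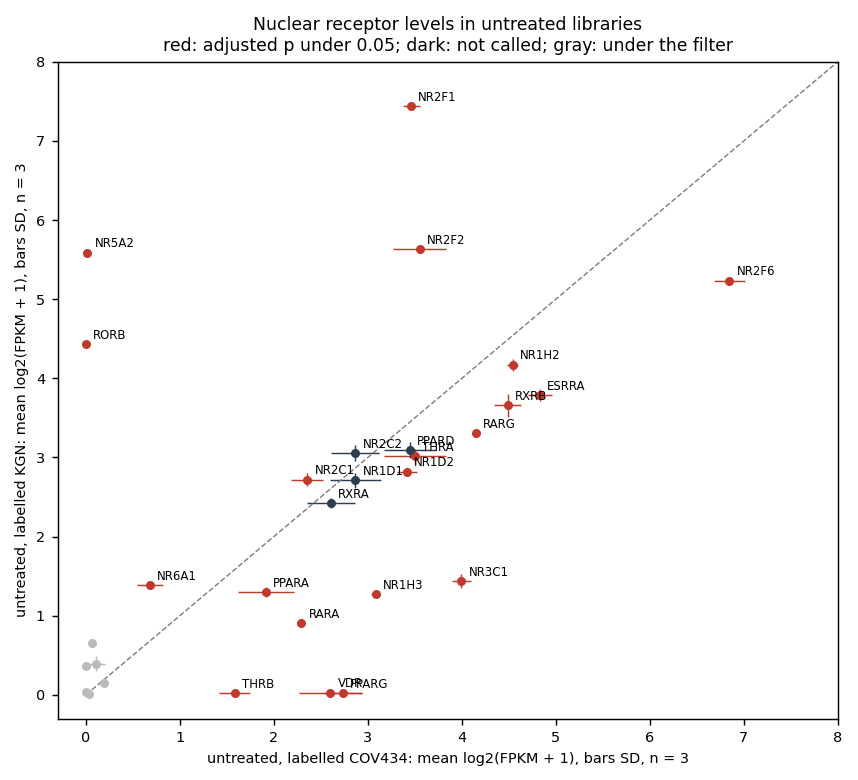
Each point is a nuclear receptor gene, with its mean log2(FPKM + 1) in the 3 untreated libraries labelled COV434 on the x axis and in the 3 labelled KGN on the y axis, bars SD, and the dashed line marking equal levels. NR5A2 and RORB lie on the y axis and THRB, VDR and PPARG on the x axis, while NR2C2, PPARD, NR1D1 and RXRA, in dark, did not pass the test.

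The remaining 6 members, RORA, RARB, NR3C2, PGR, ESR1 and NR0B1, stayed under 1 FPKM in every library. PGR, the progesterone receptor, had 80, 82 and 83 reads in the untreated libraries labelled KGN (0.274 to 0.312 FPKM) and 0 in all 6 libraries labelled COV434, at least 74.5-fold less in the untreated ones. RORA had 535 against 38 reads in the untreated groups and RARB 63 against 15. At a filter of 0.1 FPKM these 3 genes passed the test, with adjusted p-values of 0.00355, 0.00046 and 0.0349, and NR3C2, the mineralocorticoid receptor, did not (0.595). ESR1, estrogen receptor alpha, had 7 and 18 reads in the 2 untreated groups, and NR0B1 (DAX1) had 3 and 0, too few for a comparison.

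Levels between the lines depend on scaling. The library total inside the FPKM exceeded the reads on genes by a factor of 1.07 to 1.10 under the KGN label and was 0.911 to 0.978 of them under the COV434 label. Scaling by voom of limma on recovered reads moved the median of all genes from -0.02 to 0.18. Under it NR1H2 was at -0.01 in place of -0.37 and no longer passed. Of the members that passed, NR1H2, THRA and NR2C1 lost the call under some alternative.

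77-39 was next compared with no treatment in each line, to ask which receptor transcripts moved with the compound. In the libraries labelled KGN, 8 of 21 tested members fell and 1 rose at an adjusted p-value under 0.05. Over all 12671 genes tested, 34.0% passed, 16.4% lower and 17.6% higher, whereas for the members the shares were 42.9%, 38.1% and 4.76%. The median change of the members was -0.11 on the log2 scale, against 0.01 for all genes. At an unadjusted p-value under 0.05, the threshold of the study, 12 members passed against 45.3% of all genes. At that threshold the study reports more changed genes in COV434 than in KGN. Here the order was the reverse, with far more genes passing under the KGN label than under the COV434 label, whose share is given below. The reason for this reversal was not tested. In bulk RNA, fewer expressing cells and less RNA per cell cannot be told apart.

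The retinoid and thyroid hormone receptors held 3 of the 8 that fell. THRA, the thyroid hormone receptor alpha (chr17:40058290-40093867, plus strand), was at 6.55, 7.51 and 7.21 FPKM untreated and at 5.18, 5.09 and 5.44 FPKM treated, a fall by 0.37 ± 0.06 (SE) on the log2 scale with an adjusted p of 0.00413. RXRB, a partner of most of these receptors (chr6:33193588-33200688, minus strand), went from 11.1, 13.2 and 10.7 FPKM to 8.48, 8.74 and 8.97 FPKM, a fall by 0.37 ± 0.08 (adjusted p = 0.0107). RARG, the retinoic acid receptor gamma (chr12:53210567-53232980, minus strand), went from 8.85, 9.21 and 8.58 FPKM to 6.65, 7.54 and 7.54 FPKM, a fall by 0.26 ± 0.06 (adjusted p = 0.0152). In all 3 genes every treated library was below every untreated library. The share of all genes without overlap was not counted, so such statements, here and below, describe values only. RARA, the retinoic acid receptor alpha (chr17:40309192-40357643, plus strand), was at 0.912, 0.878 and 0.827 FPKM untreated and at 1.17, 1.15 and 1.2 FPKM treated (0.21 ± 0.09, adjusted p = 0.110), and RXRA was level at -0.01 ± 0.06.

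Of the lipid sensors, NR1H3 had the largest change among the members. It was at 1.42, 1.5 and 1.34 FPKM untreated and at 0.693, 0.601 and 0.713 FPKM treated, or 119, 116 and 120 reads against 57, 48 and 54, a fall by 0.54 ± 0.09 on the log2(FPKM + 1) scale with an adjusted p of 0.00617. That scale understates the change of so low a gene, which stayed above the filter of 1 FPKM through its untreated libraries and was also called with no filter. NR1H2, its paralog, did not pass (-0.13 ± 0.09, adjusted p = 0.311). PPARD and PPARA, sensors of fatty acids, were higher in every treated library without passing, PPARD at 6.98 to 8.18 against 8.35 to 9.15 FPKM (adjusted p = 0.0554) and PPARA at 1.40 to 1.59 against 1.73 to 2.05 FPKM (adjusted p = 0.0868).

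Among the clock receptors, NR1D1 (chr17:40092787-40100725, minus strand) fell from 5.27, 5.32 and 6.07 FPKM to 4.71, 4.65 and 4.16 FPKM, by 0.25 ± 0.07 (adjusted p = 0.0307). RORB, which is present only under the KGN label, rose from 19.8, 20.7 and 21.1 FPKM to 24.3, 24.6 and 22.1 FPKM, by 0.20 ± 0.06 (adjusted p = 0.0342). The treated values of neither gene overlapped the untreated ones, again with no share of all genes counted. NR1D2, the paralog of NR1D1, was level at 0.01 ± 0.05.

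NR2F6 (chr19:17231883-17245940, minus strand), an orphan repressor, fell from 36.9, 36.8 and 36.1 FPKM to 25.9, 29.5 and 33.3 FPKM, by 0.31 ± 0.09 (adjusted p = 0.0320). NR2F2 (chr15:96325938-96340263, plus strand) fell from 47.9, 49.6 and 47.8 FPKM to 41.4, 40.6 and 45.0 FPKM, by 0.19 ± 0.05 (adjusted p = 0.0282). ESRRA (chr11:64305572-64316743, plus strand) fell from 13.7, 12.6 and 12.2 FPKM to 10.4, 11.8 and 10.6 FPKM, by 0.21 ± 0.06 (adjusted p = 0.0393). The spread of NR2F6 widened in the treated libraries, while its lowest untreated value stayed above its highest treated value. The most abundant member, NR2F1, did not pass (-0.11 ± 0.06, adjusted p = 0.193), nor did NR5A2, with 45.2 to 48.1 FPKM untreated and 43.4 to 46.2 FPKM treated (-0.06 ± 0.05), NR3C1 (0.02 ± 0.09), NR6A1, NR2C1 or NR2C2. Of the members under the filter, PGR had 60, 51 and 41 reads in the treated libraries against 80, 82 and 83, with an adjusted p of 0.311 at a filter of 0.1 FPKM.

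**Figure D3:**
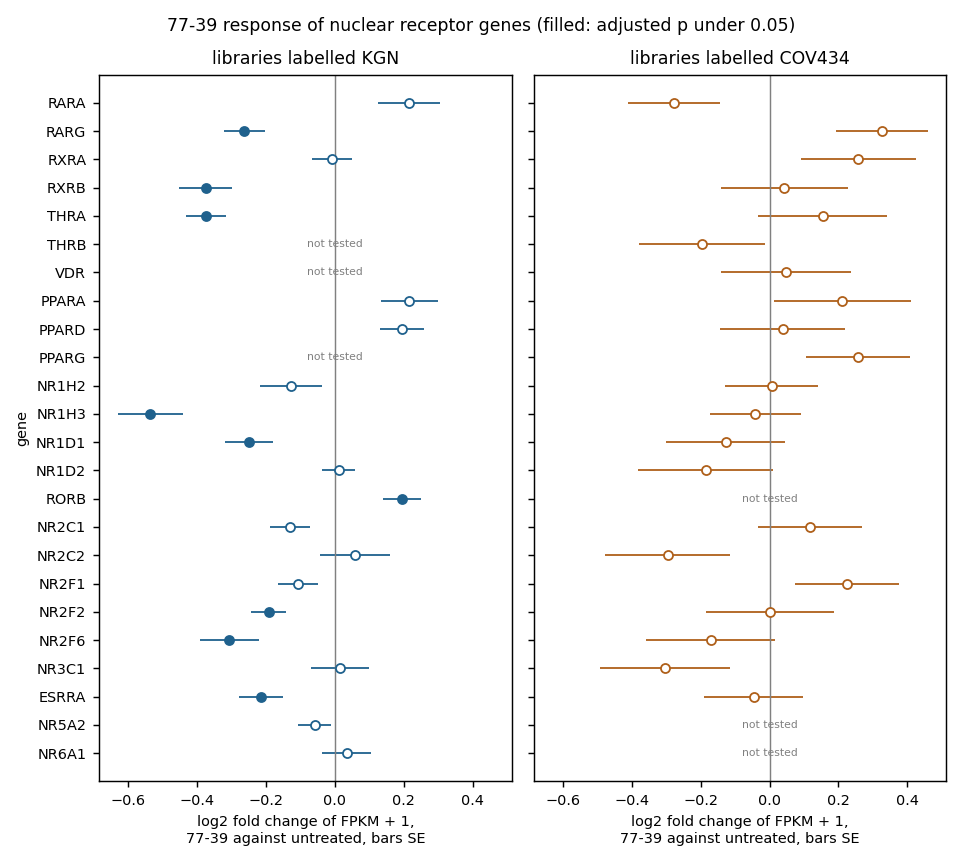
Points give the log2 fold change of FPKM + 1 between 77-39 treated and untreated libraries for the 24 members tested in either line, with SE as bars and filled points for an adjusted p-value under 0.05. On the left, 9 points are filled, 8 of them left of 0, and on the right none is filled, with wider bars.

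The calls of the libraries labelled KGN differed in how far they depended on settings. NR1H3 was called in 11 of 11 alternatives, THRA and RXRB in 13 of 14 and RARG in 12 of 14, whereas NR2F2, NR1D1, RORB, ESRRA and NR2F6 lost the call in 8 to 10 of 14. The number of members called was 3 without the untreated library 2 or 3, 4 without the treated library 1, 5 without the treated library 2, and 1, NR1H3, in a fit of all 12 libraries. In 3 of the fits that left out a library, NR1H3 fell under the filter and was not tested. Some reads are shared between genes, since no strand-specific counting is stated. THRA and NR1D1 lie tail to tail on opposite strands and share 263 exonic bases, 3.78% of THRA and 9.49% of NR1D1, RXRB shares 6.22% of its exonic bases with other genes, NR1H3 4.17%, ESRRA 9.37%, NR2F6 8.26% and RARA 17.9%, while RARG and RORB share 0.

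In the libraries labelled COV434, 0 of 21 tested members passed an adjusted p-value of 0.05 in limma, against 0.0415% of all 12060 genes tested. At an unadjusted p-value under 0.05 it was 1 member, RARG, against 8.0% of all genes. RARG was at 17.4, 16.2 and 16.7 FPKM untreated and at 22.3, 20.1 and 21.6 FPKM treated, higher in every treated library by 0.33 ± 0.13 on the log2 scale (adjusted p = 0.572). RARA was at 3.83, 4.02 and 3.84 FPKM untreated and at 3.25, 3.01 and 2.87 FPKM treated, with -0.28 ± 0.13 (adjusted p = 0.685), and PPARG at 4.76 to 6.65 and 6.88 to 6.99 FPKM, with 0.26 ± 0.15 (adjusted p = 0.770). None of these 3 genes passed, although their treated and untreated libraries did not overlap. The share of all genes without overlap was not counted, so this is a description of values only. The changes of the members ran from -0.30 for NR3C1 to 0.33 for RARG with a median of 0.01.

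The spread was wider under the COV434 label, with SE of 0.13 to 0.20 for these members, against 0.05 to 0.10 under the KGN label. The untreated library 1 stood above libraries 2 and 3 for THRA (13.7 against 8.51 and 9.41 FPKM), VDR (6.87 against 4.03 and 4.62 FPKM) and RXRA (6.45 against 4.39 and 4.59 FPKM). The treated library 1 had the highest share of mitochondrially encoded reads, 13.5% against 7.71% and 8.74% in the treated libraries 3 and 2, and its part in the result was not tested. Without both libraries numbered 1, the count of members called stayed at 0. The fit of all 12 libraries called RARG (adjusted p = 0.0466), and RORB, PGR and NR0B1 were at 0 in treated libraries as well.

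The difference between the responses of the lines was tested directly, as the interaction of line and treatment. It passed for 3 of 23 tested members, RARG, RARA and NR1H3, against 3.60% of all 13127 genes. RARG moved by -0.26 under the KGN label and by 0.33 under the COV434 label, a difference of -0.59 ± 0.11 (adjusted p = 0.0195). RARA moved by 0.21 and -0.28, a difference of 0.49 ± 0.10 (adjusted p = 0.0253). Of these 4 changes within a line, only that of RARG under the KGN label passed on its own, and RARG was not tested against RARA. RARG was above RARA in all 12 libraries. NR1H3 fell under the KGN label and was level under the COV434 label, at 7.42, 7.79 and 7.24 FPKM untreated and 7.04, 6.83 and 7.88 FPKM treated, a difference of -0.49 ± 0.11 (adjusted p = 0.0336).

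THRA, RXRB and NR2F1 did not pass, with differences of -0.53 ± 0.20 (adjusted p = 0.180), -0.42 ± 0.20 (adjusted p = 0.301) and -0.33 ± 0.15 (adjusted p = 0.267). With the library numbers of each line as a block, RARG alone passed (adjusted p = 0.0278), and RARA and NR1H3 were at 0.0593 and 0.0726. The count of 3 became 0 without the untreated library 1, 2 or 3 or the treated library 1 or 2 labelled KGN, or without the untreated library 3 labelled COV434, and 1 without the treated library 3 labelled KGN or the treated library 2 labelled COV434. Without both libraries numbered 1 and labelled COV434 it was 7, with THRA, RXRB, RXRA and NR3C1 added.

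**Figure D4:**
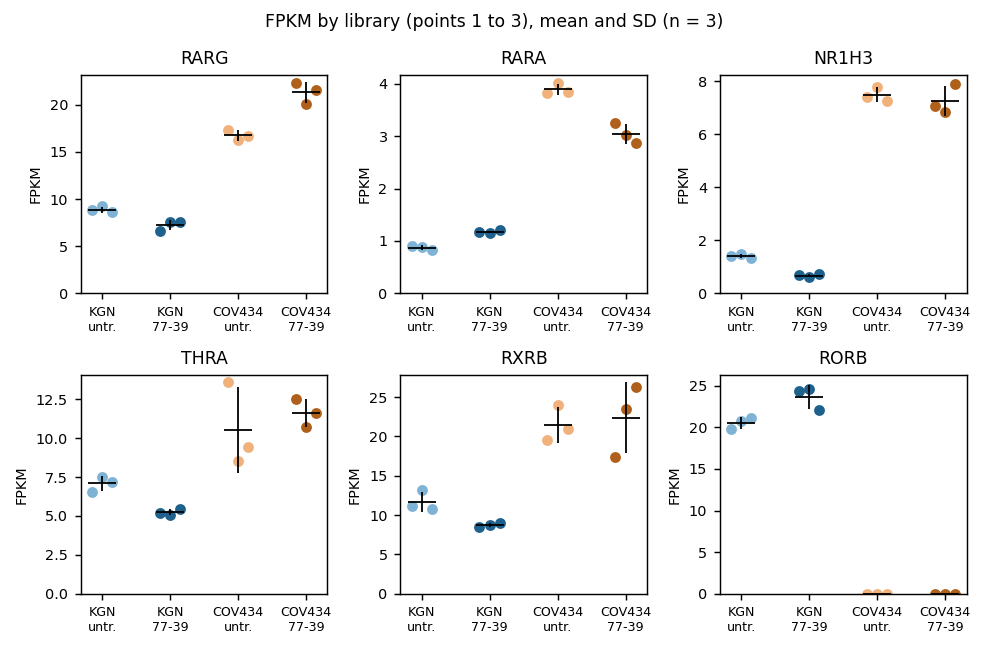
Points give FPKM of each library in the 4 groups for 6 nuclear receptor genes, with the mean and SD (n = 3) in black and axes from 0. The treated and untreated points of RARG and RARA do not overlap in either line, although only RARG under the KGN label passed, NR1H3 falls under the KGN label, and RORB is at 0 in all libraries labelled COV434.

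Related genes were then followed in lists. Of the other 18 nuclear receptors, 3 were tested in the libraries labelled KGN, and NR4A3, an immediate early orphan receptor, rose (0.54 ± 0.12, adjusted p = 0.0134). So 33.3% of them passed, against 34.0% of all genes. With means of 0.829 FPKM untreated and 1.66 FPKM treated, NR4A3 passed the filter through its treated libraries. In the libraries labelled COV434, 5 were tested and NR4A1 fell from 14.8, 12.4 and 13.1 FPKM to 5.51, 4.18 and 4.05 FPKM (-1.38 ± 0.16, adjusted p = 0.0468). There 20.0% of them passed, against 0.0415% of all genes. NR4A1 was the only gene of all lists given here that passed under that label. Its call was lost in 8 of 15 alternatives. Of 15 coregulators tested under the KGN label, TBL1X, a part of the NCoR corepressor complex, rose (0.19 ± 0.05) and CARM1, a methyltransferase coactivator, fell (-0.20 ± 0.04), which is 13.3% of them against 34.0% of all genes. TBL1X lost the call in 9 of 14 alternatives and CARM1 in 4 of 14.

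Genes of retinoid metabolism were present at different levels in the untreated lines. ALDH1A1, which makes retinoic acid, had a mean of 51.9 FPKM in the untreated libraries labelled KGN and 0.0069 FPKM in those labelled COV434, and RDH10, which makes retinaldehyde, 123 and 6.27 FPKM. CYP26B1, which breaks retinoic acid down, had 0.277 and 5.67 FPKM. ALDH1A3, a relative of ALDH1A1, ran the other way from it, with 0.0317 and 2.16 FPKM. Retinoic acid was not measured here. All 8 genes tested of the 15 in the list passed between the untreated lines, 3 higher and 5 lower under the KGN label, against 69.0% of all genes. Of these 8, ALDH1A1, ALDH1A3, CRABP2, CYP26B1 and RARRES1 had a mean under 1 FPKM in a line and passed the filter through the other. With 77-39, 2 of 4 tested passed under the KGN label. DHRS3, which turns retinaldehyde back to retinol, fell from 3.25, 3.8 and 3.5 FPKM to 2.14, 2.11 and 2.29 FPKM (-0.50 ± 0.07, adjusted p = 0.0023), and RDH11 rose by 0.24 ± 0.06. RDH11 lost the call in 5 of 14 alternatives.

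Among 10 LXR target genes, of which NR1H3 itself is 1, 6 were tested under the KGN label, where 3 fell and 1 rose, against 16.4% and 17.6% of all genes. SREBF1, the regulator of fatty acid synthesis, fell from 48.5, 59.5 and 58.5 FPKM to 28.6, 29.6 and 31.3 FPKM (-0.87 ± 0.08, adjusted p = 0.000758), and LPCAT3, a phospholipid remodelling enzyme, fell by 0.42 ± 0.08. SCD, the stearoyl-CoA desaturase, rose from 318, 347 and 338 FPKM to 810, 779 and 720 FPKM (1.2 ± 0.07, adjusted p = 0.000177). The treated and untreated libraries overlapped for none of these genes, a description of values without a share of all genes. ABCA1, the main LXR-driven cholesterol exporter, was under 1 FPKM on average in every group. It and ABCG1 were among 4 genes of the list not tested under the KGN label. There ABCA1 had 24, 24 and 33 reads untreated and 5, 6 and 1 treated. ABCG1 had 82, 84 and 116 reads untreated and 22, 25 and 17 treated. The rest of the untested genes are not given here.

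Of 12 circadian clock genes tested under the KGN label, 4 rose and 4 fell (33.3% each, against 17.6% and 16.4% of all genes), with a median of -0.08. The output factors TEF and DBP fell by 0.59 ± 0.05 and 0.45 ± 0.07, and the repressors PER2 and PER1 by 0.39 ± 0.09 and 0.32 ± 0.07. NFIL3, the repressor that opposes TEF and DBP at D-box elements, rose from 5.69, 5.5 and 5.22 FPKM to 9.25, 7.84 and 7.43 FPKM (0.50 ± 0.08, adjusted p = 0.00421). CLOCK, ARNTL2 and CRY1 rose by 0.31, 0.24 and 0.18. Under the COV434 label NFIL3 was lower, at 26.9, 27.3 and 26.2 FPKM against 13.4, 12.3 and 14.8 FPKM (-0.94 ± 0.14, adjusted p = 0.0769), and the difference between the lines, 1.44 ± 0.13, passed (adjusted p = 0.000492).

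**Figure D5:**
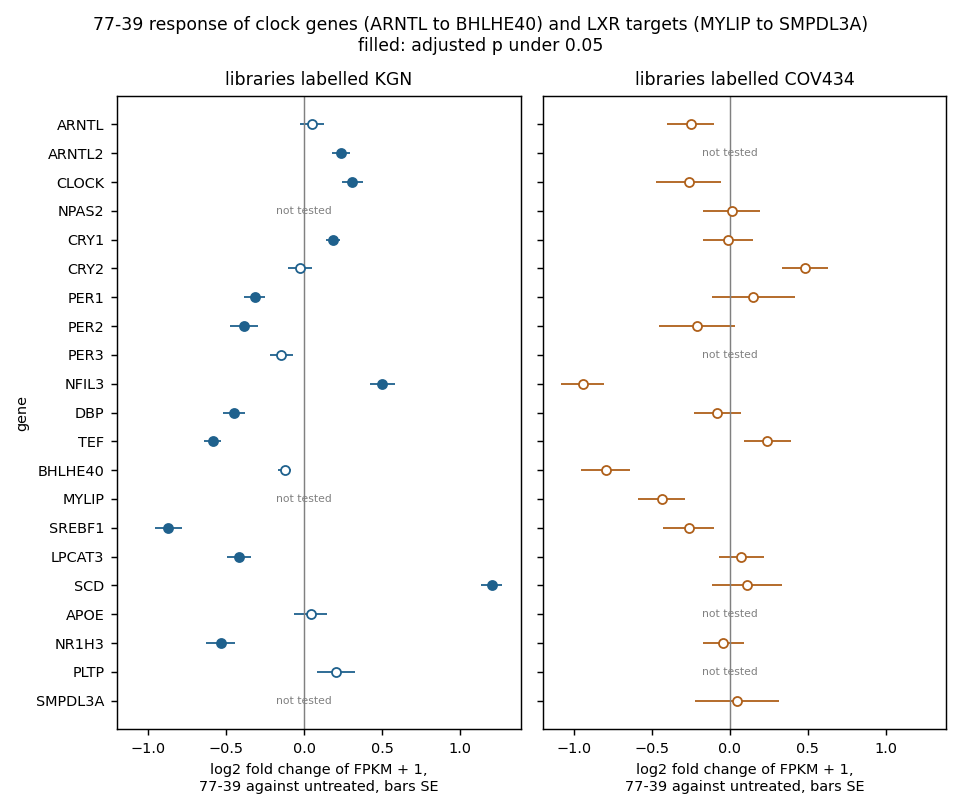
Points give the log2 fold change of FPKM + 1 with 77-39 for the tested clock genes (upper rows) and LXR target genes (lower rows) in each labelled line, bars SE, filled for an adjusted p-value under 0.05. Under the KGN label 12 points are filled, led by SCD at 1.2 and SREBF1 at -0.87, and under the COV434 label none is.

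In the other target lists, some genes passed. Of 8 glucocorticoid receptor targets tested under the KGN label, 3 fell, KLF9 (-0.47 ± 0.05), PER1, which is also a clock gene, and FKBP5 (-0.31 ± 0.05), and 0 rose, so 37.5% passed against 34.0% of all genes. Between the untreated lines, 2 of 9 tested glucocorticoid targets were higher and 6 lower under the KGN label. These are 22.2% and 66.7%, against 32.6% and 36.4% of all genes. KLF9 and FKBP5 were the higher ones, with means of 10.4 against 1.72 FPKM and 8.30 against 1.62 FPKM, and TSC22D3 was lower, with 0.0038 against 114 FPKM. Of 9 ESRRA targets tested, with ESRRA itself among them, 4 fell and 2 rose (44.4% and 22.2%, against 16.4% and 17.6% of all genes). Among those that fell were SDHA (-0.52 ± 0.07) and ATP5F1B (-0.46 ± 0.06), and those that rose were CKMT2 (0.66 ± 0.12) and CYCS (0.26 ± 0.06). CKMT2, with means of 0.706 FPKM untreated and 1.70 FPKM treated, passed the filter through its treated libraries. Of 5 estrogen and progesterone receptor targets tested, XBP1 and CTSD rose by 0.45 ± 0.04 and 0.69 ± 0.06. That is 40.0% of them, whereas 17.6% of all genes rose. In these libraries ESR1 was near 0, and ESR2, estrogen receptor beta, was at 1.42, 1.92 and 1.87 FPKM untreated and 1.49, 1.37 and 1.45 FPKM treated. Of 3 thyroid hormone and vitamin D targets tested, KLF9 fell and DIO2, the deiodinase that activates thyroid hormone, rose (0.27 ± 0.07). So 66.7% of these few genes passed, against 34.0% of all genes. Of 8 PPAR targets, ACADVL fell (-0.19 ± 0.05) and the others did not pass, so 12.5% passed, against 34.0% of all genes. ACADVL lost the call in 7 of 14 alternatives.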

How the data were processed

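RNA sequencing of KGN and COV434 cells was analysed in 12 libraries, 3 per line and treatment, with groups taken from the labels. The authors deposited FPKM per gene for 58735 genes, made from reads aligned, per the submitters' notes, with HISAT2 2.0.5. Those notes name mouse genome builds, whereas all gene coordinates equal release 29 of GENCODE on human GRCh38, so coordinates are those of the table. The counting tool is not given in the sources used here. FPKM multiplied by gene length gave whole reads for 100% of values above 0 at a tolerance of 0.05, and these recovered reads, 15547851 to 18280415 per library, served for detection limits and for voom.

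Each comparison was fitted with limma 3.58.1 (lmFit, and eBayes with a trend) in R 4.3.3 on log2(FPKM + 1). Genes whose average in its libraries was below 1 FPKM were left out first. It used two-sided tests and Benjamini-Hochberg adjustment over all genes tested. The difference of responses is the interaction of line and treatment over 12 libraries. A count test was not used, since the values are FPKM. The fits were tested on simulated data with known changes, where most were recovered with the right sign, and where false calls stayed under the nominal rate for the KGN design and exceeded it for the COV434 design. Intervals and limits cover counting error only. Python 3.11.15 with pandas 2.3.3 and matplotlib 3.10.9 was used for tables and plots.

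Same-numbered libraries labelled COV434 deviated together from their group means (r = 0.400, 0.474 and 0.166 over 12060 genes, across genes). Between unlike numbers r ran from -0.469 to 0.154, the latter for the untreated library 3 with the treated library 2. Deviations from a mean of 3 libraries depend on each other, so these r values cannot establish a pairing by number. Pairing was not tested, and the labels state none. Same-numbered libraries labelled KGN did not deviate together (r = -0.016, -0.018 and -0.019). The main fits have no block.

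All 30 members are named. Values in every library of the comparison concerned are given for members that passed in a treatment comparison or for the difference. The same holds for those with an unadjusted p under 0.05 under the COV434 label, and for up to 8 with the largest difference between untreated lines. Libraries outside that comparison are given in part or not at all. The other members are given by range, mean or count. For each other list, the counts under the KGN label are given, and some or all genes that passed there are named. Up to 4 genes per list and comparison, by smallest p, had been planned, but all 8 that passed in the clock list are named. Between the untreated lines, only the retinoid and glucocorticoid lists are described, and the genes named there do not strictly follow the order of p. ALDH1A1, ALDH1A3, RDH10, CYP26B1, ABCA1, ABCG1, ESR2, TSC22D3 and the genes listed for passing the filter through 1 group were named after their values were seen. The members and all lists were chosen with earlier results of these data known. The alternatives tried were a filter at 0.1 FPKM or none, a pseudocount of 0.1, median-ratio and quantile scaling, voom, a replicate block, 1 fit of all 12 libraries and each library left out. Leaving out both libraries numbered 1 and labelled COV434 was added after seeing the data. Protein sequences were not used here.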

Additional observations from a re-analysis of the deposited data

Results flagged for a closer look

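The response to 77-39 differed between the labelled lines, by the interaction test in limma over all 12 libraries at an adjusted p-value under 0.05, for 15 genes of the lists, 3 of them members. The differences in log2 fold change, KGN minus COV434, were -0.59 for RARG, 0.49 for RARA and -0.49 for NR1H3. RARG was lower in 3 of 3 treated libraries labelled KGN and higher in 3 of 3 labelled COV434 than any untreated library of the same line, and RARA the reverse. Of these changes within a line, only that of RARG under the KGN label passed in limma. Among the other nuclear receptors the differences were 1.39 for NR4A1, 1.72 for NR4A3 and 0.88 for NR4A2. NR4A1 was under the filter for the KGN label, with an untreated mean of 0.389 FPKM. It passed the filter here through the libraries labelled COV434, and the log2(FPKM + 1) scale understates changes of so low a gene. Among clock genes they were 1.44 for NFIL3, -0.83 for TEF, 0.67 for BHLHE40, -0.64 for PER3 and -0.51 for CRY2. PER3 was under the filter for the COV434 label and passed it here through the libraries labelled KGN. Its own change there did not pass in limma (-0.15 ± 0.08, adjusted p = 0.179). For the glucocorticoid targets DUSP1 and SGK1 they were 0.84 and 0.66, for the LXR target SCD 1.09, and for the retinoid enzyme DHRS3 -0.63. Of the 12 genes that are not members, 6 kept the call in all 20 alternatives, namely NFIL3, NR4A1, NR4A2, NR4A3, DUSP1 and TEF, and 6 lost it in some. CRY2 lost it in 15, DHRS3 in 12, SGK1 in 11, SCD in 10, and PER3 and BHLHE40 in 9 each. Groups of 3 libraries are too small for a test of outlying samples.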

How the results depend on the processing

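The number of members called under the KGN label, 9, was 5 with a filter at 0.1 FPKM, 4 without a filter, 4 with the replicate block, 1 in the fit of all 12 libraries and 3 to 8 when each library was left out. It was 7 to 12 under the scaling, pseudocount and voom alternatives. The count of 0 under the COV434 label was 0 with the replicate block and 0 in all 6 fits without a library, and 1 in the fit of all 12 libraries. The count of 3 for the difference between the lines was 1 with the replicate block, which pairs libraries by number, 7 without both libraries numbered 1 and labelled COV434, and 0 to 4 when each library was left out. The count of 20 between the untreated lines ran from 18 to 23. The block was not fitted between the untreated lines. No called value of a member changed sign in any alternative run. Among uncalled values, signs changed in 9 of 288 alternative values under the KGN label, 18 of 314 under the COV434 label, 11 of 460 for the difference and 1 of 285 between the untreated lines. Over all genes, the count of 4307 under the KGN label was 3277 with the replicate block, 1015 in the fit of all 12 libraries and 2751 to 4128 when each library was left out. The 5 under the COV434 label became 480 in that fit, 87 with the replicate block, 25 with voom, 12 without both libraries numbered 1, 3 with a filter at 0.1 FPKM, 3 with a pseudocount of 0.1, 1 without a filter and 1 to 7 when each library was left out. The 472 for the difference became 562 with the replicate block, 2007 without both libraries numbered 1, 264 with voom and 126 to 975 when each library was left out. The causes were not tested. Of the 27 other genes called under the KGN label, 12 kept the call in all alternatives. Depth limits RARB, NR3C2, ESR1 and NR0B1, with at most 26, 26, 11 and 2 reads in any library.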
